A study of Mus musculus with 416 samples.

Results

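Replication-dependent histone genes were examined in striatum from 416 drug-naïve J:DO mice, an outbred stock bred from several inbred founder strains. Members were all gene IDs whose symbol began with Hist1h, Hist2h, Hist3h or Hist4h. There were 68 of them among the 46517 gene IDs of the count table, and the 60 whose level averaged at least 0.3 CPM (counts scaled to library size) over the libraries were kept. These 60 comprised 5 of 6 linker histone H1 genes, 16 of 20 H2A, 15 of 17 H2B, 11 of 12 H3 and all 13 H4 genes. They lay on mouse chromosomes 13 (47 genes), 3 (9), 11 (3) and 6 (1), and 56 of them had a longest annotated transcript of a single exon. Of the 60, 59 are annotated as protein-coding, and Hist3h2bb-ps on chromosome 11 as a processed pseudogene. All 60 passed the filter on low counts and were tested.

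Nucleosomes wrap DNA around core histones H2A, H2B, H3 and H4, and H1 binds the linker DNA between them. Cells make most of their core histone protein in S phase, from clustered genes without introns whose mRNAs end in a conserved stem-loop instead of a poly(A) tail. The stem-loop is bound by the protein encoded by Slbp and the mRNA is destroyed when replication stops. Some members also give longer, polyadenylated transcripts in cells that no longer divide, as neurons do. In the adult striatum dividing cells are few, and many of them lie in the subventricular zone along the lateral ventricle.

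Each library came from the striatum of 1 animal. The labels give strain J:DO, sex and generation for every animal, and no age, litter or date of collection, extraction or sequencing. Groups were females of generations 21 (n = 76), 22 (n = 60) and 23 (n = 72) and males of the same generations (n = 74, 59 and 75), all drug-naïve, with no other treatment or allele named. Generation therefore cannot be told apart from anything that was done cohort by cohort. RNA was total RNA depleted of ribosomal RNA, so mRNAs without a poly(A) tail were retained. Total counts ran from 20331813 to 77458299 per library (median 43516366). In 29 libraries the total was low or the correlation with the rest was poor (called weak libraries here), and in 29 libraries Xist went against the labelled sex. Results are given with all libraries, and beside the main counts without these. Markers of spiny projection neurons, the main striatal neurons, summed to a median of 6864 CPM in generation 21, 6666 CPM in generation 22 and 6189 CPM in generation 23, but to 163.2 CPM in the lowest library, which was of generation 21.

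The stem-loop was looked for in the annotated transcripts of each gene, because it is the feature that sets replication-dependent mRNAs apart. A match to its 16-base consensus was found in 41 of the 60 genes, against 0.274% of 55450 annotated genes. Of the matched genes, 22 of types H1, H2A, H2B and H3 shared the form shown for Hist1h3b, 7 H4 genes that of Hist1h4c, and 5 H2B and H3 genes that of Hist1h3c. The examples below carry these forms, with 5 bases on each side, and 2 rarer H4 forms. Capitals mark the stem-loop, and the letters are those of the transcript written as DNA, 5′ to 3′.
Hist1h3b: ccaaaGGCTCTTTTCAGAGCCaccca
Hist3h2a: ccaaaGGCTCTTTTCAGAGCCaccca
Hist1h3c: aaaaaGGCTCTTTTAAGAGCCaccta
Hist1h4c: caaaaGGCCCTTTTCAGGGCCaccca
Hist1h4b: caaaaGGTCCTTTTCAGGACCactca
Hist2h4: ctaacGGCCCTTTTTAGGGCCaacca
Hist1h3b and Hist3h2a carried the same bases here, although they lay at opposite ends of the relation with Mki67 described further on. No match says only that these letters are not in the annotated transcript. The annotated transcript ended within 300 bases after the stem-loop in 25 genes and ran on for more than 300 bases in 16, among them Hist1h1d (4884 bases), Hist4h4 (2445), Hist1h2ac (2010), Hist1h2be (1861) and Hist3h2a (1643).

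Promoters are shown because the members varied together and some pairs start back to back on opposite strands. RefSeq (build GRCm38.p6) gave the 250 bases before the start site of 54 of the 60 genes. In these windows 4 motifs were searched on both strands, none of which contains another: the CCAAT box, the TATA box in its form TATAAA, the octamer ATTTGCAT, and the element AAACACA known from H1 promoters. CCAAT was present in all 5 H1, all 16 H2A, all 12 H2B and 8 of 9 H3 windows but in 3 of 12 H4 windows, against 34.5% of the 27025 RefSeq windows of the same length. TATAAA was present in 27 of 54 windows (50%), against 12.97%. The octamer was present in 6 of 16 H2A and 4 of 12 H2B windows and in no H1, H3 or H4 window, against 1.61%. AAACACA was present in 4 of 5 H1 windows, 1 of 16 H2A windows and none of the others, against 6.22%. Capitals mark these motifs on either strand. Hist1h1b, an H1 gene, lay on the minus strand at chr13:21780626-21780875.
Hist1h1b: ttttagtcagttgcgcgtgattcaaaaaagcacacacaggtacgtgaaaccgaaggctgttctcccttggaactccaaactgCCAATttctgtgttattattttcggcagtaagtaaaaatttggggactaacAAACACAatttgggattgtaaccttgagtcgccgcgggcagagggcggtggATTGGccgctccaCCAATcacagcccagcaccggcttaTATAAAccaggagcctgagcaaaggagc
Hist1h3c, the H3 gene with the steepest relation to Mki67, lay on the minus strand at chr13:23745522-23745771.
Hist1h3c: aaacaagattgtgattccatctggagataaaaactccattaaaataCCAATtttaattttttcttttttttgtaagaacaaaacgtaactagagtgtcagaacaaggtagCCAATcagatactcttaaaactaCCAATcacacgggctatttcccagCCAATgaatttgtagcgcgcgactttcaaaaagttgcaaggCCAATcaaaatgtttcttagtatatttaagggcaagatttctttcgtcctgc
Hist1h2bg, an H2B gene on the plus strand at chr13:23571150-23571399, had a window that overlapped that of the H2A gene Hist1h2ae on the other strand.
Hist1h2bg: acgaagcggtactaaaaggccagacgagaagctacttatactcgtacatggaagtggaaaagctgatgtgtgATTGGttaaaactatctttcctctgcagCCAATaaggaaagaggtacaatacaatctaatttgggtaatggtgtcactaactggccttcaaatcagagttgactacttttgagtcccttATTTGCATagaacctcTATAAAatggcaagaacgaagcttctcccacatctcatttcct
Hist1h4m, an H4 gene on the plus strand at chr13:21811496-21811745, shared an identical run of 99.6% of these 250 bases with its neighbour Hist1h4n.
Hist1h4m: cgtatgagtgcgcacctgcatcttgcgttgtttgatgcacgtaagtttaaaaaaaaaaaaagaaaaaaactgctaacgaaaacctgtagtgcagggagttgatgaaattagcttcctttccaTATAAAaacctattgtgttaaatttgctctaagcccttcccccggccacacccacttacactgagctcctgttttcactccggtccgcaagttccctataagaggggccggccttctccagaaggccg

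The level of the 60 genes was described first, by histone type. CPM here are counts scaled to library totals with TMM factors. Summed over the 60 genes the level ranged from 452 to 1140 CPM with a median of 607. H4 genes took 48.6% of the summed counts, H2B genes 16.2%, H2A genes 14.8%, H1 genes 13.2% and H3 genes 7.24%. Per kilobase of annotated exon the median gene stood at 23.6 CPM for H4, 7.05 for H2B, 6.36 for H1, 5.89 for H3 and 4.14 for H2A. The level of each gene over the libraries is plotted by type.

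**Figure D1:**
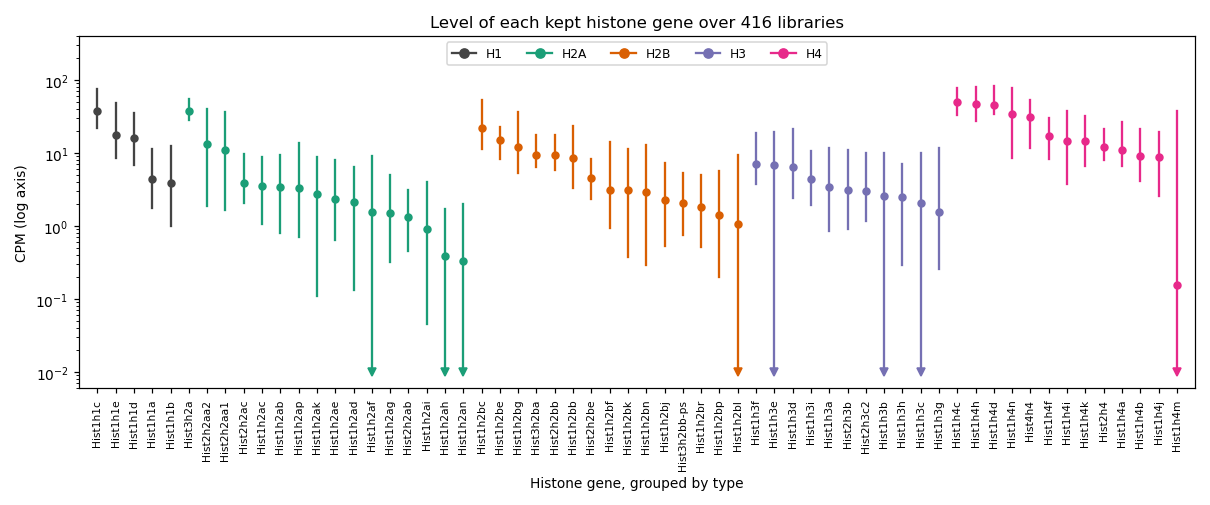
Level in CPM (log axis) of each of the 60 histone genes, grouped by type: points are medians over 416 libraries, lines run from the lowest to the highest library, and arrows mark genes whose lowest library is under 0.01 CPM. Hist3h2a keeps within 28.6 to 54.5 CPM, whereas Hist1h4m runs from 0 to 37.4 CPM around a median of 0.16.

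Among the H1 genes, Hist1h1c, which encodes a linker histone also made outside S phase, ranged from 22.2 to 76.5 CPM with a median of 37.8. Hist1h1e ranged from 8.54 to 49.3 CPM (median 17.5) and Hist1h1d from 6.92 to 35.9 CPM (median 16.3). Hist1h1b had the largest spread of the H1 genes, an SD of log2 CPM within groups of 0.495, over a range of 1.003 to 12.5 CPM. Hist1h1c had the smallest, 0.26. The sixth H1 gene, Hist1h1t, known from the testis, averaged 0.0617 CPM and was not kept.

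Among the H2A genes, Hist3h2a ranged from 28.6 to 54.5 CPM with a median of 38.1, and its SD of log2 CPM of 0.14 was the smallest of all 60. Hist2h2aa2 ranged from 1.90 to 40.8 CPM (median 13.2) and Hist2h2aa1 from 1.63 to 36.2 CPM (median 11.02). Per kilobase Hist2h2aa2 stood at 26.7 CPM, Hist2h2aa1 at 19.6 CPM and Hist3h2a at 17.9 CPM. The largest SD of an H2A gene, 1.01, belonged to Hist1h2an, which was under 0.1 CPM in 49 libraries. Among the H2B genes, Hist1h2bc ranged from 11.4 to 52.7 CPM (median 21.9), Hist1h2be from 8.40 to 23.02 CPM (median 14.96) and Hist1h2bg from 5.34 to 36.7 CPM (median 12.0). Their SD of log2 CPM ran from 0.23 in Hist2h2bb and Hist3h2ba to 0.97 in Hist1h2bl.

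Among the H3 genes, Hist1h3f ranged from 3.71 to 18.7 CPM (median 6.98), Hist1h3d from 2.41 to 21.1 CPM (median 6.53) and Hist1h3e from 0 to 19.7 CPM (median 6.91). Hist1h3e had the largest SD of its type, 1.13, and Hist1h3f the smallest, 0.35. The H4 genes Hist1h4c, Hist1h4h and Hist1h4d had medians of 49.5, 46.4 and 45.7 CPM, and none of the 3 fell below 27.5 CPM in any library. Per kilobase Hist1h4h, at 100.8 CPM, exceeded Hist1h4n at 82.1 CPM and Hist1h4c at 61.8 CPM. Hist1h4d was the steadiest H4 gene (SD 0.17) and Hist1h4m the most variable gene of the family (SD 3.39). The genes just inside the limit of 0.3 CPM were Hist1h2an (0.37 CPM), Hist1h2ah (0.44 CPM) and Hist1h2ai (1.02 CPM), and those just outside were Hist1h2ao (0.19 CPM), Hist2h3c1 (0.0727 CPM) and Hist1h1t.

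Most of the histone genes fell from generation 21 to 22 and 23. The summed level ranged from 452 to 1140 CPM (median 686) in generation 21, from 459 to 935 CPM (median 600) in generation 22 and from 475 to 829 CPM (median 561) in generation 23. The groups overlapped, but 18.5% of the libraries of generation 22 (22) and 2.72% of those of generation 23 (4) exceeded the median of generation 21. The SDs between libraries were 111.3, 81.8 and 53.99 CPM in generations 21, 22 and 23, and of 99.3, 80.002 and 52.7 CPM without the 29 weak libraries. Both comparisons with generation 21 used the same libraries of that generation, so their values are given side by side. From generation 21 to 23, 58 of the 60 genes fell and none rose in edgeR's quasi-likelihood test, where 32.6% of all 22968 genes tested were called lower and 25.8% higher (58.3% in either direction). From generation 21 to 22, 49 fell and none rose, against 24.5% called lower and 22.1% called higher (46.6% in either direction). From generation 22 to 23, 30 fell and none rose, against 9.63% and 8.53% (18.2% in either direction). Without the 29 weak libraries the 3 counts were 58, 49 and 33, and without the 29 whose Xist went against the label they were 58, 49 and 24. With libraries labelled female only they were 56, 46 and 3, and with those labelled male only 55, 27 and 9, in fits that hold fewer libraries. In both comparisons with generation 21 all 60 fitted differences were below 0, and the median log2 differences of the 60 genes were -0.38 for generation 23 and -0.22 for generation 22, where the medians over all genes tested were -0.02 and -0.01. The median from generation 22 to 23 was -0.14, against -0.01 over all genes. Fewer histone-making cells and less histone mRNA per cell cannot be told apart in whole tissue.

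**Figure D2:**
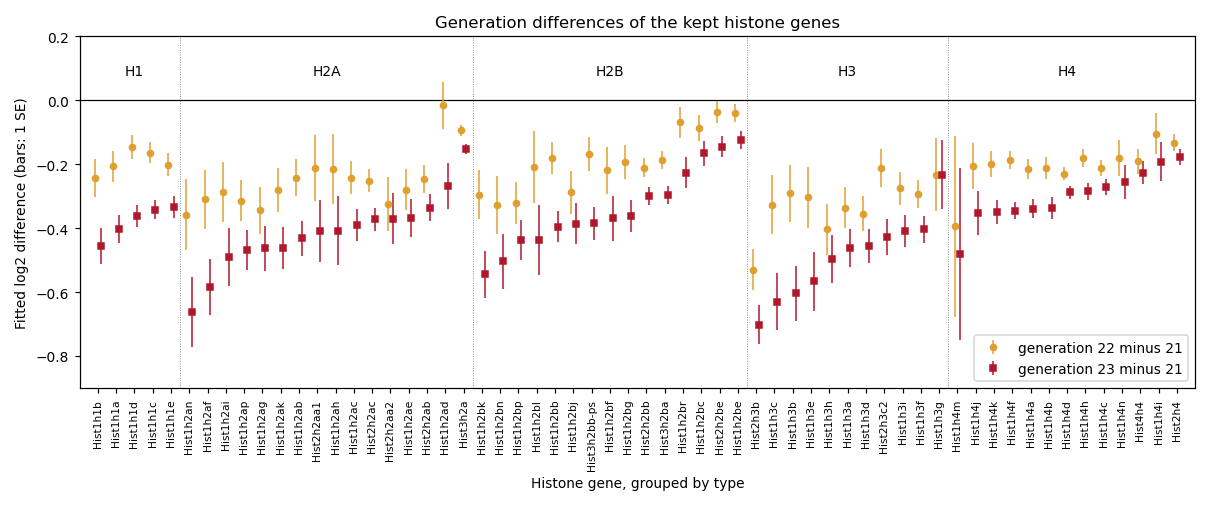
Fitted log2 difference of each of the 60 histone genes from generation 21 to 22 (circles) and to 23 (squares), grouped by type, with bars of 1 standard error from edgeR. Both series lie below 0, and H3 genes reach the lowest values, down to -0.70 in Hist2h3b.

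The lowest median difference by type was that of the H3 genes. Hist2h3b ranged from 1.40 to 11.04 CPM (median 4.23) in generation 21, from 0.90 to 6.64 CPM (median 2.97) in generation 22 and from 1.01 to 6.05 CPM (median 2.62) in generation 23. The ranges overlapped and the medians stepped down, and Hist2h3b fell by 0.70 ± 0.0605 SE on the log2 scale from generation 21 to 23, a level 38.6% lower (edgeR adjusted p = 2.7e-25). Hist1h3c had medians of 2.55, 2.06 and 1.59 CPM in generations 21, 22 and 23, within ranges of 0 to 10.1, 0.32 to 5.45 and 0 to 5.59 CPM. Its log2 difference from generation 21 to 23 was -0.63 ± 0.089 (edgeR adjusted p = 6.4e-11), and that of Hist1h3b was -0.60 ± 0.087 (edgeR adjusted p = 9.8e-11). Of the 11 H3 genes 10 fell, with a median log2 difference of -0.46. The exception was Hist1h3g, at -0.23 ± 0.11 (edgeR adjusted p = 0.053).

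All 16 H2A genes fell from generation 21 to 23, with a median of -0.41. Hist1h2an and Hist1h2af had the largest H2A differences, -0.66 ± 0.11 and -0.58 ± 0.089, with medians of 0.41 and 2.02 CPM in generation 21 and of 0.27 and 1.35 CPM in generation 23. Hist3h2a, the steadiest gene, still fell by 0.15 ± 0.016: its medians were 40.2, 37.7 and 36.5 CPM in generations 21, 22 and 23, within ranges of 31.6 to 54.5, 29.7 to 52.1 and 28.6 to 46.3 CPM (edgeR adjusted p = 6.2e-18). All 5 H1 genes fell by 0.33 to 0.46 on the log2 scale. Hist1h1c went from a median of 43.6 CPM to 38.5 and 34.1 CPM, and Hist1h1b from 4.54 to 3.97 and 3.32 CPM.

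Of the H2B genes, all 15 fell from generation 21 to 23, with a median of -0.37. The 5 smallest differences among the 60 genes were those of Hist1h2be (-0.12), Hist2h2be (-0.15), Hist3h2a (-0.15), Hist1h2bc (-0.17) and the H4 gene Hist2h4 (-0.18). Hist1h2be had medians of 15.4, 15.003 and 14.2 CPM in the 3 generations, and its difference was not called when the score of cortical markers (-0.03, adjusted p = 0.35) or the scores of ependymal and neuroblast markers (-0.06, adjusted p = 0.050) entered the fit. Of the 13 H4 genes 12 fell, with a median of -0.29, the smallest of the 5 types. Hist1h4c had medians of 55.9, 47.8 and 46.5 CPM, Hist1h4d of 51.3, 44.1 and 43.05 CPM and Hist1h4h of 51.7, 45.2 and 42.3 CPM. Hist1h4m, with medians of 0.449, 0.0292 and 0.161 CPM in the 3 generations, had a difference of -0.48 ± 0.27 and was not called (edgeR adjusted p = 0.11).

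Other short or unspliced genes were counted for comparison. Among other genes whose longest transcript was at most 500 bases, 12.96% of 1319 were called lower from generation 21 to 23 and 22.1% higher. In the classes of other genes with longer transcripts, 28.7% to 38.1% were called lower and 16.99% to 37.2% higher. Some histone genes have transcripts longer than 500 bases, so the shortest class does not match them. Among single-exon protein-coding genes outside the family 41.3% of 994 were called lower and 20.5% higher. Small noncoding RNA types were called lower in 9.96% and higher in 26.8%. Ribosomal protein genes were called lower in 78.5% of 93.

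Marker lists of other cell types moved with generation too, in a contrast of generations 21 and 23 where 32.6% of all genes tested were called lower and 25.8% higher. Ependymal markers, expressed by the ciliated cells that line the ventricle, fell in 7 of 8 genes from generation 21 to 23, and their summed level ran from 8.80 to 142.02 CPM (median 34.2) in generation 21, from 11.8 to 67.3 CPM (median 30.3) in generation 22 and from 12.97 to 51.9 CPM (median 26.1) in generation 23. Neuroblast and subventricular zone markers fell in 11 of 12 genes, with summed medians of 365.3, 354.4 and 337.8 CPM within ranges of 256.4 to 521.1, 257.6 to 455.5 and 284.1 to 449.7 CPM. Cortical excitatory neuron markers rose in 9 of 10 genes, with summed medians of 479.7, 484.7 and 631.5 CPM within ranges of 286.2 to 1287, 281.1 to 1477 and 322.1 to 1359 CPM. No gene of the ependymal or neuroblast list had a median of 0 CPM in any generation, and their part in the histone differences was not tested. The fits that follow cannot decide it, because the scores come from the same libraries and vary with the summed histone level (r 0.48 and 0.59). With the ependymal and neuroblast scores in the fit, chosen after the data were seen, 50 histone genes were called lower in generation 23 than in 21 and their median difference was -0.23. With the cortical score 54 were called lower (median -0.31), and with the log2 level of Mki67 58 were called lower (median -0.36). Of all genes tested, 29.8%, 32.4% and 32.2% were called lower in these fits, in that order. From generation 22 to 23 the count, 30 without an added term, was 9 with the ependymal and neuroblast scores and 7 with the cortical score. It was 13 with Mki67, which itself fell in this contrast. The shares of all genes called lower fell too, to 6.40%, 3.27% and 6.70% in these fits, from 9.63% without an added term.

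Between the sexes, 2 of the 60 genes differed in edgeR's test, both lower in females, where 1.3% of all genes tested were called lower and 1.55% higher (2.86% in either direction). These 2 are 3.33% of the 60, near the share in either direction, so the count gives no result about the family. Hist2h2bb ranged from 5.77 to 17.01 CPM (median 9.004) in libraries labelled female and from 6.13 to 17.6 CPM (median 9.69) in those labelled male, a log2 difference of -0.09 ± 0.023 (edgeR adjusted p = 0.0084). Hist3h2bb-ps ranged from 0.74 to 5.25 CPM (median 1.97) and from 0.88 to 4.23 CPM (median 2.21), a log2 difference of -0.15 ± 0.043 (edgeR adjusted p = 0.023). The ranges of the sexes overlapped for both genes. The count was 2 without the 29 libraries whose Xist went against the label and 4 without the 29 weak libraries. Of all genes tested, the first of these fits called 2.31% lower and 2.52% higher, and the second 2.51% and 3.23%. Both shares were above those with all libraries. In the test of whether the generation differences depended on sex, edgeR called 0 histone genes, with 0 at an unadjusted p under 0.05, where it called 0.322% of all genes tested. Limma voom called 0 of all genes tested, with 1 histone gene at an unadjusted p under 0.05. Without the weak libraries edgeR called 20 of all genes and 0 histone genes, with 1 of these at an unadjusted p under 0.05. Without those with Xist against the label it called 41 of all genes and 0 histone genes, with 0 at an unadjusted p under 0.05. With so few genes called at all, the counts of 0 called give no result about the family.

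Mki67, which encodes a protein found in cycling cells, was the measure of proliferation. It ranged from 1.2 to 32.2 CPM (median 17.3) in generation 21, from 8.95 to 32.1 CPM (median 18.1) in generation 22 and from 6.49 to 28.8 CPM (median 16.4) in generation 23. The 3 ranges overlapped. Mki67 itself fell from generation 22 to 23 (log2 -0.15 ± 0.051, edgeR adjusted p = 0.023), and it was not called between generations 21 and 23 (-0.09, edgeR adjusted p = 0.083) or 21 and 22 (0.06, edgeR adjusted p = 0.36). A slope was fitted for each gene, in log2 CPM of the gene per log2 CPM of Mki67, with sex and generation in the model. It was called above 0 in 51 of the 60 genes and below 0 in 1, where 30.5% and 29.7% of all 22967 genes tested had called slopes above and below 0 (60.3% in either direction). Without the 29 weak libraries 51 were called above and 0 below, and without the 29 with Xist against the label 51 and 1. Of all genes tested, the first of these fits called 20.7% above and 22.8% below 0, and the second 29.2% and 30.7%. The median slope of the 60 genes was 0.38, against 0.01 over all genes. With the ependymal score in the fit, chosen after the data were seen, 42 were called above 0 and 2 below, and the median slope was 0.29. Whether the level of Mki67 and of histone mRNA reflects the number of cycling cells in the tissue piece was not tested.

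By type, all 11 H3 genes had called slopes above 0 (median 0.49, from 0.23 to 1.27), as had 13 of 16 H2A genes (median 0.58), 13 of 15 H2B genes (median 0.44), 4 of 5 H1 genes (median 0.40) and 10 of 13 H4 genes (median 0.14, at most 0.32). The largest slopes were those of Hist1h3c (1.27 ± 0.072 SE, edgeR adjusted p = 2.1e-50), Hist1h3b (1.24 ± 0.069), Hist1h2af (1.18 ± 0.073), Hist1h2ah (1.16 ± 0.098) and Hist1h2an (1.15 ± 0.099). The smallest were those of Hist2h2ab (-0.10 ± 0.037, edgeR adjusted p = 0.016), Hist1h1e (0.03 ± 0.029), Hist1h4d (0.03 ± 0.018), Hist3h2ba (0.03 ± 0.025) and Hist3h2a (0.04 ± 0.015). Besides Hist1h1e, Hist1h4d and Hist3h2ba, the genes whose slope was not called were Hist3h2bb-ps, Hist1h4i, Hist2h2aa1, Hist2h2aa2 and Hist1h4m. The slopes of Hist2h2ab, Hist3h2a and Hist1h4c rested on particular libraries or terms. That of Hist2h2ab was -0.02 (adjusted p = 0.76) without the 29 weak libraries, that of Hist3h2a was 0.01 (adjusted p = 0.47) with the cortical score, and that of Hist1h4c, 0.05 in the fit of all libraries, was 0.00 (adjusted p = 0.98) within generation 21.

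**Figure D3:**
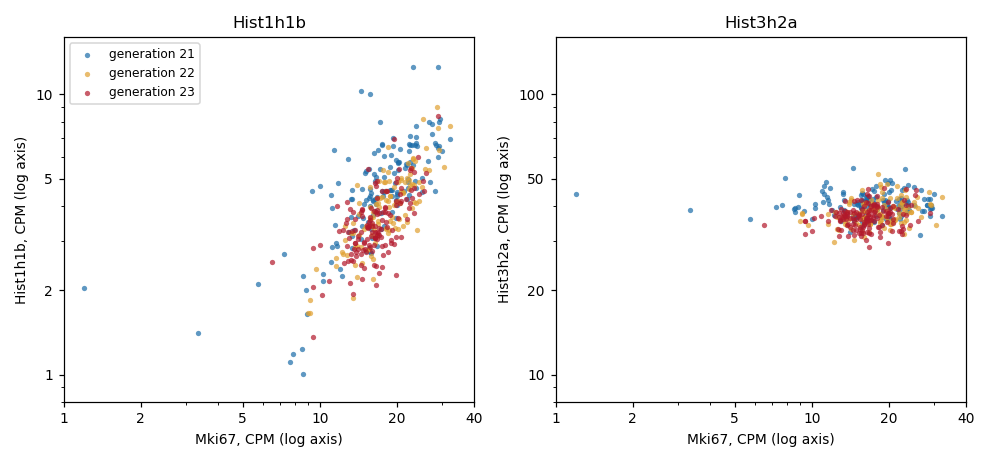
Level of Hist1h1b (left) and Hist3h2a (right) against Mki67, in CPM on log axes spanning the same fold range on each vertical axis, 1 point per library coloured by generation. Hist1h1b climbs with Mki67 (r = 0.68) while Hist3h2a stays between 28.6 and 54.5 CPM (r = 0.11).

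Simple correlations over the 416 libraries are given as descriptions because genes of a library share its depth and tissue piece. Hist1h1b had a Pearson r of 0.68 with Mki67 on the log2 scale (Spearman's rho 0.69), and 0.71 without the 2 libraries farthest from the median of Mki67. Within generations 21, 22 and 23 its r was 0.71, 0.81 and 0.63. Hist1h3c had an r of 0.69 and Hist1h2bb of 0.63, whereas Hist1h4c had 0.10, Hist4h4 0.10 and Hist3h2a 0.11. Summed by type, the level correlated with Mki67 most for H2B (r = 0.60, rho 0.66) and H3 (0.56 and 0.62), then H2A (0.43 and 0.54), H1 (0.37 and 0.45) and H4 (0.25 and 0.32). For the sum of the 60 genes r was 0.41 (rho 0.50, and r 0.45 without the 2 farthest libraries), and 0.42, 0.60 and 0.68 within generations 21, 22 and 23.

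The 6 genes often described with polyadenylated transcripts were Hist1h1c, Hist1h2bc, Hist2h2be, Hist3h2a, Hist3h2ba and Hist4h4. Their median slope was 0.11 (from 0.03 to 0.18), against 0.41 for the other 54 genes, and their median r with the mean of the other histone genes was 0.29, against 0.56. All 6 fell from generation 21 to 23, with a median of -0.20 against -0.39 for the other 54. By annotation, the 16 genes whose transcript ran more than 300 bases past the stem-loop had a median slope of 0.20, the 25 with a shorter end 0.43 and the 19 without a stem-loop match 0.49. The classes overlapped: among the 16 genes slopes ran from 0.03 to 0.62, the highest being those of Hist2h3c2 (0.62 ± 0.046), Hist1h1d (0.40 ± 0.027) and Hist1h3e (0.40 ± 0.087).

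Co-variation across libraries was described next. After removal of the 6 group means the median Pearson r of log2 CPM was 0.30 over the 1770 pairs of the 60 genes, and 48.9% of pairs exceeded 0.3. Over all pairs of genes tested the median was -0.001 and 3.06% exceeded 0.3. The median was 0.28 for pairs of the same type and 0.30 for pairs of different types, 0.37 for neighbours and other pairs in the same block of genes, and 0.26 for pairs in different blocks. Blocks were separated by gaps of more than 100000 bases. The first principal component took 33.98% of the variance of the 60 genes and the second 9.63%. Within generations the median r of pairs was 0.37, 0.30 and 0.18 in generations 21, 22 and 23.

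**Figure D4:**
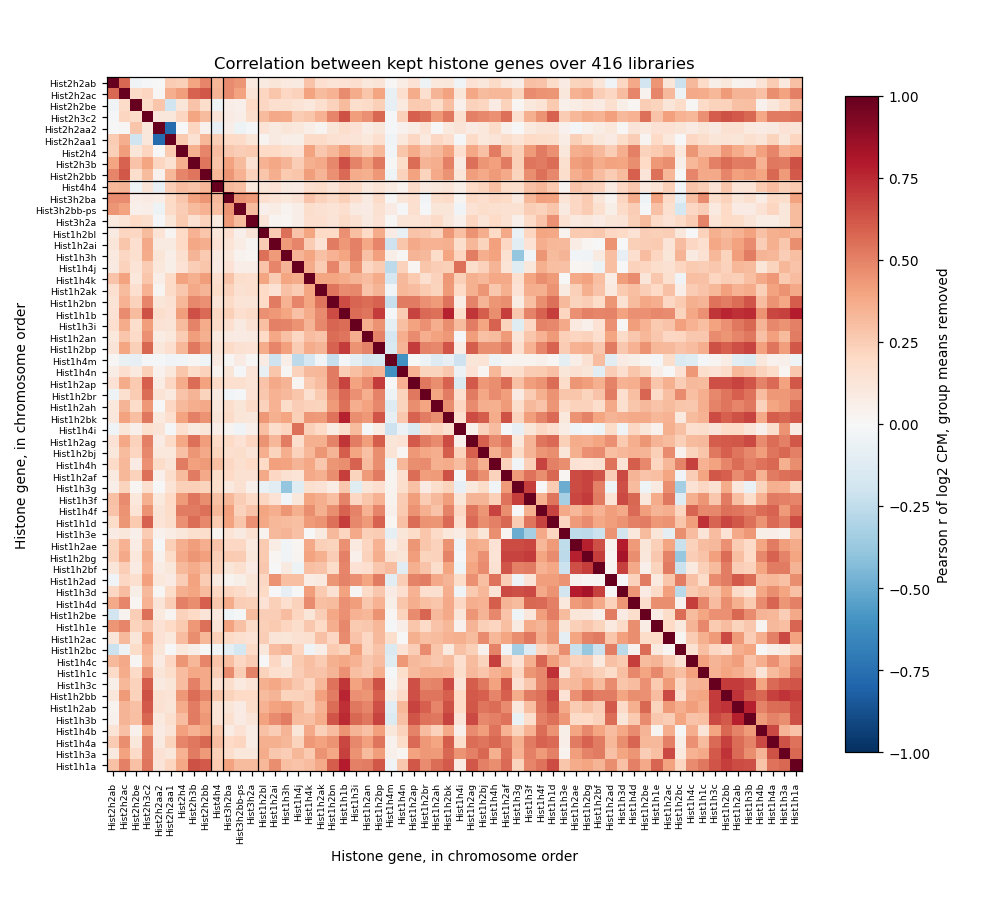
Pearson r of log2 CPM between each pair of the 60 histone genes over 416 libraries, group means removed, genes in chromosome order (lines part chromosomes 3, 6, 11 and 13). Most cells are pale to dark red, and the darkest blue cells are the copy pairs Hist2h2aa2 with Hist2h2aa1 (r = -0.77) and Hist1h4m with Hist1h4n (r = -0.60).

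Hist1h1b was the gene most like the rest, with an r of 0.87 with the mean of the other 59. Hist1h2bb (0.81), Hist1h1a (0.79), Hist1h1d (0.78) and Hist1h2ag (0.76) followed. At the other end stood Hist1h4m (-0.06), Hist2h2aa2 (0.10), Hist1h4i (0.17), Hist1h4n (0.20) and Hist2h2aa1 (0.20), and Hist1h4m was the 1 gene with an r below 0. H1 genes had the highest median r with the others, 0.78, followed by H3 (0.60), H2B (0.57), H2A (0.52) and H4 (0.47).

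The 8 pairs of genes whose upstream windows overlapped on opposite strands were all an H2A gene with an H2B gene. Their median r was 0.51, against 0.25 over all other pairs of an H2A and an H2B gene. Those other pairs were not matched for block. Over genes of every type the median r was 0.37 within a block and 0.26 between blocks. What overlapping windows add beyond a shared block was not tested. H2B genes without an upstream window could not be paired this way and were left among the other pairs. Of the 8 pairs, Hist1h2ae with Hist1h2bg had the highest r (0.78), and their shared promoter is printed above. Hist1h2ag with Hist1h2bj reached 0.60. The pair of Hist1h2bf and Hist1h2ad stood apart at 0.03, although their windows overlapped and their Mki67 slopes were 0.56 and 0.62. Hist1h2ae and Hist1h2bg fell by nearly the same amount from generation 21 to 23, 0.37 and 0.36 on the log2 scale.

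A set of genes of 1 block on chromosome 13 was picked after its values were seen. Hist1h2ae, Hist1h2bg, Hist1h2bf, Hist1h3d, Hist1h3f and Hist1h3g had pairwise r from 0.50 to 0.83, the highest being that of Hist1h2bg with Hist1h3d, with no 100-base window in common. Hist1h3e and Hist1h2bc, which lie in the same block, had r below 0 with all 6. The r of Hist1h3e was -0.50 with Hist1h3g and -0.33 with Hist1h3f, that of Hist1h2bc was -0.38 with Hist1h2bg, and Hist1h3e and Hist1h2bc had an r of 0.47 with each other. Hist1h3e and Hist1h3g shared 8.12% of the windows of the shorter gene. The share was 38.1% for Hist1h3e with Hist1h3f and 39.7% for Hist1h2bg with Hist1h2bc. The sum of Hist1h2bg and Hist1h2bc had an SD of log2 CPM of 0.21, against 0.44 and 0.33 for each alone.

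Near-identical copies limit what single genes show. For each gene the share of 100-base windows of its annotated transcripts, the read length in the labels, that also occurs in another annotated gene was counted. It exceeded 50% in 22 of the 60 genes and was 0 in 5: Hist2h2be, Hist2h4, Hist1h1b, Hist1h4d and Hist1h1a. How the counting assigned reads that fit more than 1 gene is not given in the sources used here, so levels of genes that share sequence are uncertain one by one. Hist2h2aa1 and Hist2h2aa2 had all windows of the shorter gene in common and an r of -0.77. Their SDs of log2 CPM were 0.90 and 0.73, but the SD of their sum was 0.23, with the sum running from 16.3 to 62.5 CPM (median 24.5). Hist1h4m and Hist1h4n had 88.1% of windows in common and an r of -0.60. Hist1h4m was under 0.1 CPM in 47.4% of libraries and above 5 CPM in 25.7%, whereas Hist1h4n ranged from 8.68 to 78.6 CPM (median 34.8). The SD of their sum was 0.36 against 3.39 and 0.50 for each alone, and the sum ran from 12.7 to 83.3 CPM. Among the genes without shared windows, Hist1h1b and Hist1h1a had slopes of 0.79 and 0.48 on Mki67. From generation 21 to 23 they fell by 0.46 and 0.40 on the log2 scale. Hist1h4d fell by 0.29, and its slope of 0.03 was not called. Hist2h2be and Hist2h4 fell by 0.15 and 0.18, among the smallest differences of the family.

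**Figure D5:**
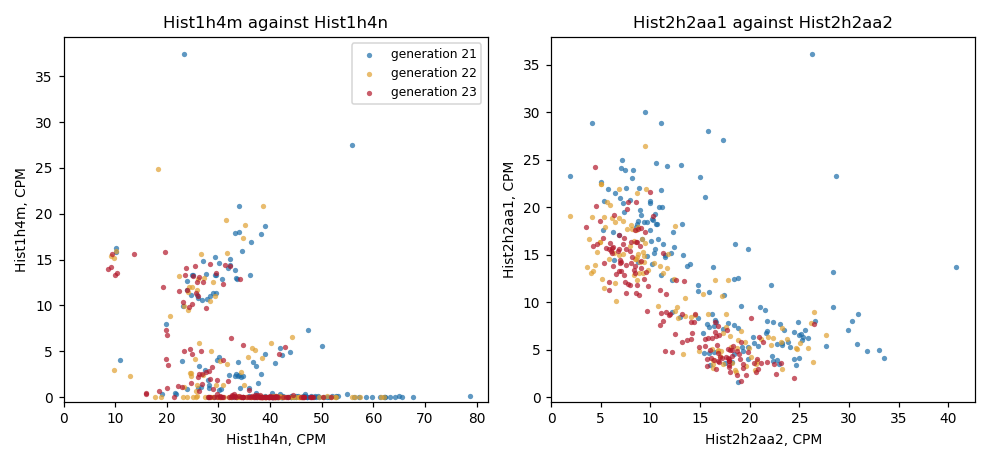
Level in CPM of 2 copy pairs, 1 point per library coloured by generation: Hist1h4m against Hist1h4n (left) and Hist2h2aa1 against Hist2h2aa2 (right). Hist1h4m is under 0.1 CPM in 47.4% of libraries, and the points of the right panel run down a diagonal, so the sum varies less (SD 0.23) than either gene.

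Genes that act on histone mRNA or histone protein were counted from lists. The shares over all genes tested, 25.8% higher and 32.6% lower from generation 21 to 23, are the background for these counts. Of 17 genes of histone mRNA transcription and end processing, 8 rose and 4 fell, with a median log2 difference of 0.04. Npat, which encodes the activator of histone gene transcription, had medians of 39.3, 41.6 and 41.6 CPM and was 0.10 higher on the log2 scale in generation 23 (edgeR adjusted p = 5.4e-09). Slbp, the gene of the stem-loop binding protein, had medians of 12.1, 12.2 and 12.6 CPM and was not called (0.04, edgeR adjusted p = 0.17). Casp8ap2 was 0.14 higher and Lsm10, a subunit of the U7 particle that cleaves histone mRNA, fell by 0.19. Of 10 histone mRNA decay genes tested, 4 rose and 3 fell, Tut7 by 0.08 upward and Exosc10 and Upf1 by 0.09 downward. Of 19 histone chaperone genes 10 rose and 7 fell, with Atrx at 0.16, Supt16 at 0.10 and Cabin1 at -0.12.

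Genes listed as replication-independent histones, which include H2afx, whose intronless gene also gives a stem-loop mRNA in S phase, fell in 10 of 11 cases and rose in 1, with a median of -0.10. H2afx had medians of 18.1, 16.4 and 15.6 CPM and fell by 0.23 (edgeR adjusted p = 5.9e-24), H1fx fell by 0.24 and H3f3b by 0.12. The gene that rose was Cenpa of the centromere (0.11), named after its value was seen. Cell cycle genes fell in 23 of 38 cases and rose in 1, with a median of -0.14. Mcm7 and Mcm3 of the replicative helicase fell by 0.15 and 0.28 and Cdc20 by 0.36, while Tyms, of thymidylate synthesis, rose by 0.59 from a median of 92.1 to 138.5 CPM. On Mki67, 35 of 37 cell cycle genes other than Mki67 had called slopes above 0 (median 0.44) and 2 below. Above and below 0 were 11 and 1 of 12 neuroblast genes (median 0.45) and 7 and 3 of 11 replication-independent histone genes (median 0.10). All 8 ependymal markers (median 0.47) and all 10 spiny projection neuron markers (median 0.24) had called slopes above 0. All 10 cortical markers (median -1.54) and all 8 oligodendrocyte markers (median -0.20) had called slopes below 0. Over all genes tested the shares were 30.5% above and 29.7% below 0.

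The remaining lists were counted for the same contrast of generation 23 with 21, where again 32.6% of all genes tested were called lower and 25.8% higher. A list near those shares, as the endothelial one, gives no result about its genes. Genes fell in 7 and rose in 2 of 12 oligodendrocyte precursor markers, 5 and 1 of 8 oligodendrocyte markers, 8 and 1 of 9 microglial markers, 4 and 1 of 8 astrocyte markers, 2 and 2 of 8 endothelial markers, 1 and 0 of 8 choroid plexus markers, 4 and 0 of 5 blood genes and 6 and 0 of 10 spiny projection neuron markers. Of 10 other RNAs without a poly(A) tail or with an unusual end, 5 fell and 2 rose: Rn7sk fell by 0.26 and Rpph1 by 0.25, and Malat1 was 0.11 higher. The mean log2 level of the cell cycle list had an r of 0.59 with the summed level of the 60 histone genes, group means removed. The r was 0.59 for neuroblast markers, 0.55 for replication-independent histones, 0.48 for ependymal markers, 0.25 for spiny projection neuron markers and 0.001 for oligodendrocyte precursors, which also divide in the adult brain. It was -0.31 for cortical markers and -0.29 for the transcription and end-processing list. With Hist1h1b the r was 0.85 for the cell cycle list and 0.83 for the neuroblast list, and with Hist3h2a 0.12 and 0.14.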

How the data were processed

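The authors deposited estimated counts per gene and library, not normalized. The aligner, counting tool, build and annotation are not given in the sources used here. Per the labels' protocols, libraries were stranded, ribosome-depleted and sequenced as 100-base pairs. Of the values 23.8% were not whole, and rounding moved 0.00502% of the count. Names, chromosomes, transcripts and lengths came from GENCODE M21 by gene ID (98.9% matched). No value column was left unused.

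Genes were filtered with filterByExpr (minimum count 10), scaled with TMM and fitted by edgeR 4.0.16 (quasi-likelihood, robust) in R 4.3.3, over all 416 libraries, on sex and generation. Separate fits added their interaction or the centred log2 CPM of Mki67. Calls are Benjamini-Hochberg adjusted p under 0.05 over all genes tested, two-sided. Standard errors are the log2 value divided by the square root of F. CPM are TMM-scaled, and a prior count of 2 was added before taking log2. The code was tested on simulated data. Weak libraries are those with a total under 0.5 of the median, or whose median r to other libraries lay over 4 scaled median absolute deviations under the typical one. The number of libraries per group, 59 to 76, limits precision, and p-values measure the spread between animals, whose relatedness is not labelled. Alternatives used limma voom (3.58.1), DESeq2 (1.42.0), other scaling, filters, covariates and subsets. Correlations between members and list scores carry no p.

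Members and gene lists were chosen with earlier results of these data known. Named genes are, per type, the 3 of highest mean CPM and the most and least variable, the 5 extremes at each end of the generation 23 minus 21 difference, the Mki67 slope and the r with the other members, genes called between sexes, 3 on either side of the CPM limit, and up to 4 genes per other list with the smallest p. Other members are named for their place in a pair, block or count, after their values were seen.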

Additional observations from a re-analysis of the deposited data

How the results depend on the processing

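Counts of histone genes called in either direction stayed within 1.5 times for generation 23 minus 21 (50 to 59, against 58), for the Mki67 slope (44 to 54, against 52) and for the interaction (0 throughout). The interaction was called in 0.322% of all genes with all libraries, so its 0 gives no result about the family. The fit with the ependymal score, which called 44 slopes, held 42 above 0 and 2 below. Generation 22 minus 21 gave 27 to 55 against 49, the 27 with libraries labelled male only. That fit called 16.1% of all genes lower, against 24.5% with all libraries. Generation 23 minus 22 gave 3 to 33 against 30. It gave 3 with libraries labelled female only and 9 with male only. It gave 7 with the cortical score, 9 with the ependymal and neuroblast scores and 13 with Mki67 in the fit. Of all genes tested, these fits called lower 1.72%, 2.28%, 3.27%, 6.40% and 6.70% in that order, against 9.63%. The single-sex fits hold fewer libraries, and for the rest the cause was not tested. Female minus male gave 2 to 4, the 4 without the 29 weak libraries, where 2.51% of all genes were called lower and 3.23% higher. The median log2 difference of generation 23 minus 21 ran from -0.40 to -0.23, the latter with the ependymal and neuroblast scores. The r of summed histone level with Mki67 ran from 0.41 to 0.45 and the median r between members from 0.27 to 0.30. Reversed signs were listed only for named members called in the main fit, which held all libraries and no added score. Hist1h2ah reversed between generations 23 and 21 with the ependymal and neuroblast scores (0.0287, edgeR adjusted p = 0.81). The slope of Hist2h2ab reversed within generations 22 (0.0332, edgeR adjusted p = 0.81) and 23 (0.00846, edgeR adjusted p = 0.96). That of Hist3h2a reversed within generation 21 (-0.00407, edgeR adjusted p = 0.88). Over all 60 genes, slopes below 0 numbered 6 with the ependymal score and 7 within generation 21, against 1 in the main fit. The cause was not tested. Among the named members, 11 generation calls and 34 slope calls were lost under single alternatives, and 18 slope calls were gained. No paired analysis was possible because the groups are different animals whose replicate numbers were given in accession order. The covariate fits with Mki67 or ependymal, neuroblast and precursor scores were chosen after seeing the data. Genes under 1 CPM, such as Hist1h2an and Hist1h2ah, rest on few counts per library.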

Other observations

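The genes outside the family whose level followed the summed histone level most closely were picked after their values were seen, among genes averaging at least 1 CPM and with group means removed. Rn7sk, the small nuclear RNA that holds back transcription elongation, had an r of 0.65, with medians of 20338 CPM in generation 21 and 17294 CPM in generation 23. Lmnb1, of the nuclear lamina, followed with 0.63, the neural progenitor gene Sox1 with 0.63 and the small Cajal body RNA Scarna2 with 0.63. Cdca7 and Uhrf1, expressed in S phase, had an r of 0.61 each, as had Btg1 and Gm20628, and Dlx2 and Mcm7 of 0.59 each. At the opposite end, Pafah1b1 had an r of -0.62, and Serinc1 and Sucla2 of -0.58 each. Ogfrl1 and Snap25, the latter of synaptic vesicle fusion, had an r of -0.57 each. Snap25 had medians of 909.5 CPM in generation 21 and 1114 CPM in generation 23.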
